A study of Mus musculus with 6 samples.

Results

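Blood vessels of mouse gliomas were followed here through 42 genes of endothelial cells, of vascular endothelial growth factor (VEGF) and of angiopoietin signalling. The genes were chosen by name, each read from its probe set with 1 gene symbol in the platform annotation, taking the probe set with the highest mean where a gene had several. Of the 42 genes, 41 were measured, out of 19938 genes with such a probe set, and all 41 had 1 probe set each. Figf was matched under its current symbol Vegfd, and Selp is not analysed here. The series compares 3 relapsed gliomas, numbered 1, 2 and 3, with 3 control gliomas, numbered 1, 2 and 4. All tumours were started under the flank skin of Nu/Nu mice, an athymic strain with few mature T cells, from glioma cells whose oncogene is a mutant EGFR, the receptor of epidermal growth factor. The relapsed tumours came back after the mutant receptor was extinguished, while the control tumours are labelled as control glioma only. Some of the mice drank doxycycline at 2 g/L, but the labels do not say which group did, and tumours were taken at 2 cm3. The labels do not state the promoter of the transgene, the species of the receptor, how many cell lines were used or whether each tumour came from its own mouse. Under the skin the vessels come from the host's flank rather than from brain.

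VEGF ligands bind receptor tyrosine kinases on endothelial cells, where the receptor encoded by Kdr drives sprouting, Flt1 binds and holds back VEGF-A, and Flt4 receives VEGF-C and VEGF-D in lymphatic vessels. Angiopoietin-1 activates the receptor Tie2, encoded by Tek, and steadies vessels, whereas angiopoietin-2 can oppose it and is made by endothelial cells of remodelling vessels and by some tumour cells. In gliomas VEGF-A from hypoxic tumour cells and angiopoietin-2 are known to accompany the growth of abnormal vessels. Several of the genes are not restricted to vessels: Pdpn and Vcam1 are also expressed by fibroblasts and glial cells, Cd34 by fibroblasts, Cd93 and Fli1 by blood cells, and Prox1 by neural progenitors.

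The values are log2 intensities, 1 per gene and array, and a difference of 1 is 2-fold. Between pairs of arrays, correlations over all genes lay between 0.982 and 0.994 within groups and between 0.962 and 0.979 across groups. A few arrays carried markers of tissue next to the tumour, given as a score: each gene's log2 value was set to its deviation from the 6-array mean, and the deviations of a list were averaged. The adipocyte score was 2.52 in relapsed 1 and -0.73 to -0.27 elsewhere, the keratinocyte score 1.28 in relapsed 3 and -0.41 to -0.17 elsewhere, and the skeletal muscle score 1.79 in control 2 and -0.63 to 0.08 elsewhere. Fat, skin and muscle hold vessels of their own, and their part in the results was not tested beyond leaving arrays out. Endothelial markers were present in every tumour: Cdh5, which encodes VE-cadherin, had 9.41, 9.16 and 8.98 in relapsed 1, 2 and 3, against 9.41, 9.77 and 9.44 in control 1, 2 and 4. The median of the probe sets without a listed gene, 5.65, serves as a mark of low signal, and 3 of the 41 genes had a group mean below it.

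Relapsed gliomas had more Angpt1, Vegfc, Vcam1 and Pdpn transcript and less Angpt2, Cd93, Prox1, Robo4 and Sox7 transcript than control gliomas. By limma with Benjamini-Hochberg adjustment over all genes, 9 of the 41 genes changed, or 22.0%, against 9.16% of all genes tested. Of these, 4 rose, in a background where 3.69% of all genes rose, and 5 fell, in a background where 5.47% fell. These shares of all genes are also the background for the counts by role and by list below. Over all genes 735 rose and 1091 fell, and after median centring of the arrays 696 rose and 1687 fell, while the 41 genes then had 4 that rose and 6 that fell. The largest of the 9 changes was the 5.74-fold lower level of Angpt2. Groups did not overlap for 19 of the 41 genes, against 30.8% of all genes, with 7 higher in relapsed tumours (13.0% of all genes) and 12 lower (17.8% of all genes). Over the 41 genes the median difference, relapsed minus control, was -0.19, against -0.02 over all genes, and it was -0.10 without relapsed 3. The pan-endothelial genes Pecam1, which encodes the adhesion molecule CD31, Cdh5 and Tie1 had differences of -0.19, -0.36 and -0.19, and none passed the test. Other endothelial genes went the other way. The mean in relapsed tumours was higher for 14 and lower for 27 of the 41 genes. It was higher for 15 and lower for 15 of 30 other endothelial genes, Cdh5 among them. In RNA from whole tumours, fewer cells of a type and less RNA per cell cannot be told apart, and tumour and host transcripts are both of mouse.

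**Figure D1:**
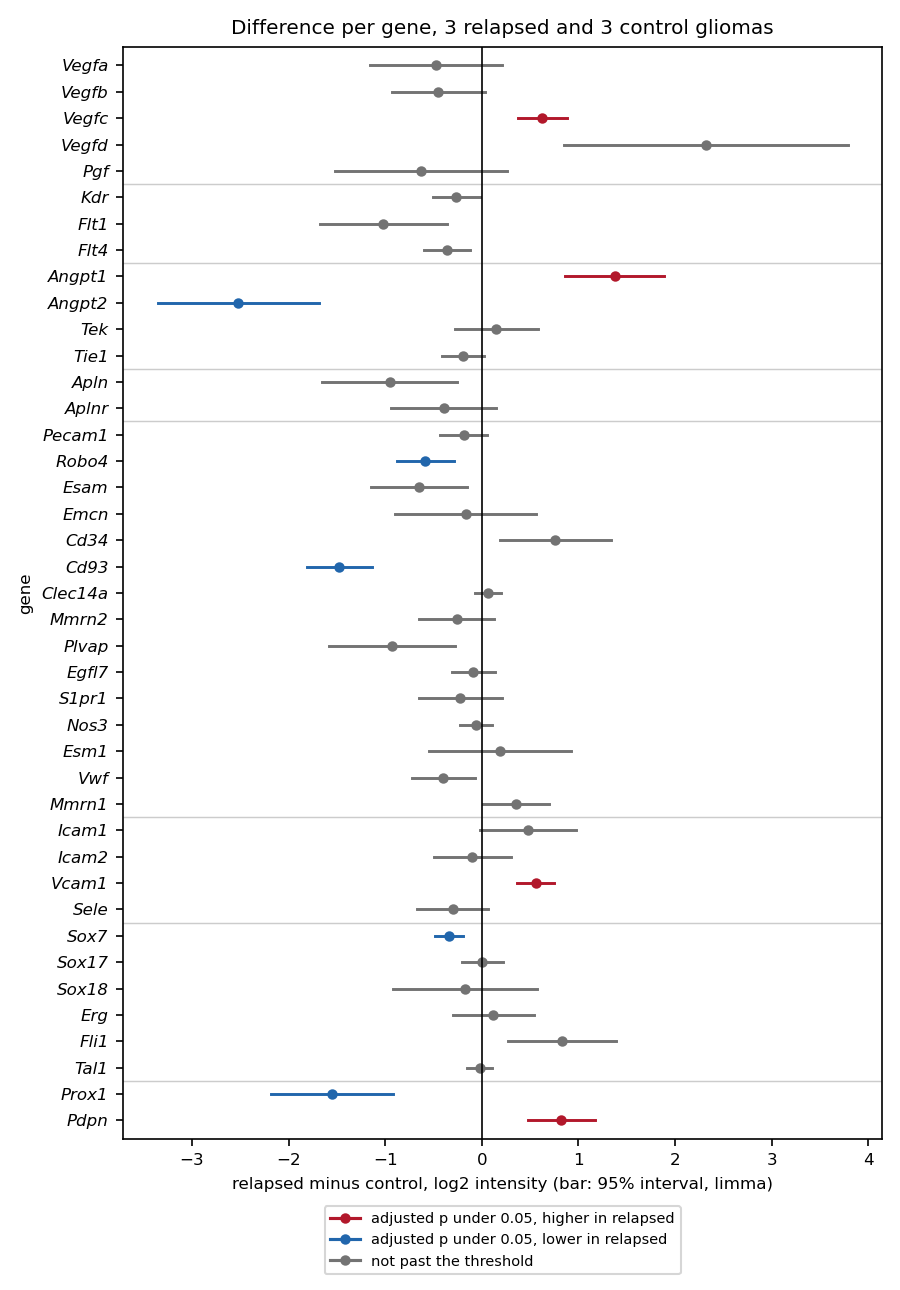
Difference between relapsed and control gliomas for each of the 41 genes, on the log2 intensity scale, grouped by role from VEGF ligands at the top to lymphatic markers at the bottom. Points are relapsed minus control, bars are 95% intervals from limma, and colours mark the 4 genes that rose and the 5 that fell; Angpt2 at -2.52 and Angpt1 at 1.38 lie on opposite sides of 0.

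Among the 5 VEGF ligands, 1 rose and none fell. Vegfc, which encodes the lymphatic growth factor VEGF-C (probe set 10571788), had 7.17, 6.83 and 6.93 in relapsed 1, 2 and 3, against 6.42, 6.34 and 6.30 in control 1, 2 and 4. The groups did not overlap, and relapsed 1 was the highest. Vegfc rose by 0.62 ± 0.10 (SE), which is 1.54-fold, and limma gave it an adjusted p of 0.0266. The call held without relapsed 1 (adjusted p = 0.0381) and was lost whichever other array was left out (adjusted p of 0.0526 to 0.0950). Vegfd encodes the related ligand VEGF-D, which fibroblasts also secrete. Its probe set 10603099 gave 9.99, 8.09 and 7.89 in relapsed 1, 2 and 3, against 6.54, 6.04 and 6.43 in control 1, 2 and 4. All relapsed tumours lay above all controls, but relapsed 1 lay far above the other relapsed tumours. The difference of 2.32 ± 0.59, or 4.99-fold, had a wide 95% interval, 0.85 to 3.79, and did not pass (adjusted p = 0.0709, limma). Without relapsed 1 it was 1.65 with an adjusted p of 0.0335. Whichever other array was left out, Vegfd did not pass (adjusted p of 0.108 to 0.183). Relapsed 1 also had the highest fibroblast score, 1.07 against 0.47 in both other relapsed tumours, beside its adipocyte score; the part of these cells was not tested.

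The ligands that act mainly on blood vessels did not pass the test and were lower by mean. Vegfa, the main driver of sprouting, had 10.63, 11.67 and 10.95 in relapsed 1, 2 and 3, against 11.67, 11.55 and 11.44 in control 1, 2 and 4. Relapsed 2 was level with the highest control, and the other relapsed tumours lay below every control. Vegfa differed by -0.47, with a 95% interval of -1.15 to 0.21. Vegfb and Pgf, which bind Flt1, differed by -0.45 ± 0.19 and -0.63 ± 0.35, and limma gave adjusted p of 0.213 and 0.331.

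The starts of the genes for both lymphatic ligands are shown beside those of Flt1 and Robo4. Flt1 and Robo4 are endothelial genes that were lower in all relapsed tumours. The windows are examples without and with CGGAAG or AGGAAG, which are only some of the letters that ETS factors such as Erg and Fli1 bind. They were chosen for this contrast and stand for no split between higher and lower genes. Each line gives the 250 bases before the transcription start in RefSeq on GRCm38.p6, read on the gene's strand, with capitals marking the ETS letters CGGAAG or AGGAAG on either strand.
Vegfc, chr8:54077282-54077531, plus strand: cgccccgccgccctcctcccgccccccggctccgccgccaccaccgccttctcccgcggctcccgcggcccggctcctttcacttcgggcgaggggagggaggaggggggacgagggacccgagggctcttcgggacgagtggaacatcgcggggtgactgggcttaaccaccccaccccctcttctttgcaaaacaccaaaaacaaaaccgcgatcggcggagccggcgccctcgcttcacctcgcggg
Vegfd, chrX:164373272-164373521, plus strand: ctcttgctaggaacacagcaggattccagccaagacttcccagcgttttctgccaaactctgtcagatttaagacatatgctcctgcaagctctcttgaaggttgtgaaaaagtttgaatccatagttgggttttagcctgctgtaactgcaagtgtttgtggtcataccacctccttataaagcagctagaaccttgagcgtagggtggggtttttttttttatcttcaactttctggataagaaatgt
Flt1, chr5:147726012-147726261, minus strand: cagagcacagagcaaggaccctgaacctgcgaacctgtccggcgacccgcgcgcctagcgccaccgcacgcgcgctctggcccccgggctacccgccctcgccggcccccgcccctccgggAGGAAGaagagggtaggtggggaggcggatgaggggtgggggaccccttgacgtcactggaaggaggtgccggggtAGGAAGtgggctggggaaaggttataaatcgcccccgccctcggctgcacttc
Robo4, chr9:37401722-37401971, plus strand: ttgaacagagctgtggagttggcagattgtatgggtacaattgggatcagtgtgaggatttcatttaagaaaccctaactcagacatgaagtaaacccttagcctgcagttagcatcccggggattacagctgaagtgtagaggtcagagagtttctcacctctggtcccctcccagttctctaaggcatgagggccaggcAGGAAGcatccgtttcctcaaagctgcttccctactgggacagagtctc
The ETS letters were found 129 and 53 bases before the start of Flt1 and 49 bases before that of Robo4, and in neither ligand's window. They occur in 39.2% of all 32851 promoters of this length. The SOX letters ACAATG or ACAAAG and the hypoxia element letters ACGTG, which occur in 25.2% and 16.6% of all promoters, were in none of these windows. A match of letters is a description, not a bound site. Promoters were listed for 25 of the 42 genes, 33 promoters in all, and 11 of these, or 33.3%, held the ETS letters. Among the 4 changed genes with a promoter, Robo4 held them and Vegfc, Pdpn and Prox1 did not.

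All 3 VEGF receptors were lower in every relapsed tumour than in any control, as were 17.8% of all genes, and none passed the test. Flt1 (probe set 10535807) had 8.07, 8.59 and 9.04 in relapsed 1, 2 and 3, against 9.57, 9.81 and 9.38 in control 1, 2 and 4. Its difference was -1.02 ± 0.26, with an adjusted p of 0.0746 in limma. It passed when the dimmer 50% of genes were left out (adjusted p = 0.0357). Flt4, the receptor of VEGF-C and VEGF-D, had 6.70, 6.74 and 6.45 in relapsed 1, 2 and 3, against 6.91, 7.02 and 7.04 in control 1, 2 and 4, a difference of -0.36 ± 0.10 with an adjusted p of 0.0820. Its call depended on the scaling, with an adjusted p of 0.0487 after quantile normalization and 0.0442 after median centring. Kdr had 7.62, 7.32 and 7.35 in relapsed 1, 2 and 3, against 7.62, 7.77 and 7.68 in control 1, 2 and 4. Relapsed 1 and control 1 were nearly equal for Kdr, and the difference was -0.26 ± 0.10 with an adjusted p of 0.168.

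The angiopoietins moved in opposite directions. Angpt2, the context-dependent antagonist of Tie2 (probe set 10577315), had 7.51, 8.57 and 7.71 in relapsed 1, 2 and 3, against 10.63, 10.69 and 10.03 in control 1, 2 and 4. The groups were apart by 1.46, the distance between relapsed 2 and control 4. Angpt2 fell by 2.52 ± 0.33 (SE), with an adjusted p of 0.0183 in limma. Angpt1, the Tie2 agonist made by pericytes and other mesenchymal cells (probe set 10428376), had 6.32, 6.88 and 7.10 in relapsed 1, 2 and 3, against 5.38, 5.33 and 5.46 in control 1, 2 and 4. It rose by 1.38 ± 0.20, which is 2.59-fold (adjusted p = 0.0217, limma). The control level of Angpt1, 5.39, lay under the mark of low signal, so the size of its rise is less certain. Set against their control means, Angpt1 and Angpt2 were 3.87, 3.37 and 4.44 apart in relapsed 1, 2 and 3, against -0.19, -0.31 and 0.50 in control 1, 2 and 4. By this definition the control values cancel out on average, so the distances only restate both differences by array. The call of Angpt2 held without relapsed 1 or relapsed 2 (adjusted p of 0.0471 and 0.0343) and was lost when any of the other 4 arrays was left out (0.0541 to 0.0688). That of Angpt1 held without relapsed 1 (0.0234) and was lost whichever other array was left out (0.0626 to 0.0790).

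Their receptors were not called. Tek had 7.63, 7.02 and 7.17 in relapsed 1, 2 and 3, against 7.16, 7.01 and 7.20 in control 1, 2 and 4. Only relapsed 1 stood above the controls, and the difference of 0.15 ± 0.17 was -0.03 without it. Tie1, the orphan partner of Tie2, had 7.75, 7.50 and 7.54 in relapsed 1, 2 and 3, against 7.75, 7.86 and 7.75 in control 1, 2 and 4. Its difference was -0.19, with a 95% interval of -0.41 to 0.02. The intervals for Tek (-0.28 to 0.58) and Tie1 allow changes of either receptor that are small beside those of the ligands.

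**Figure D2:**
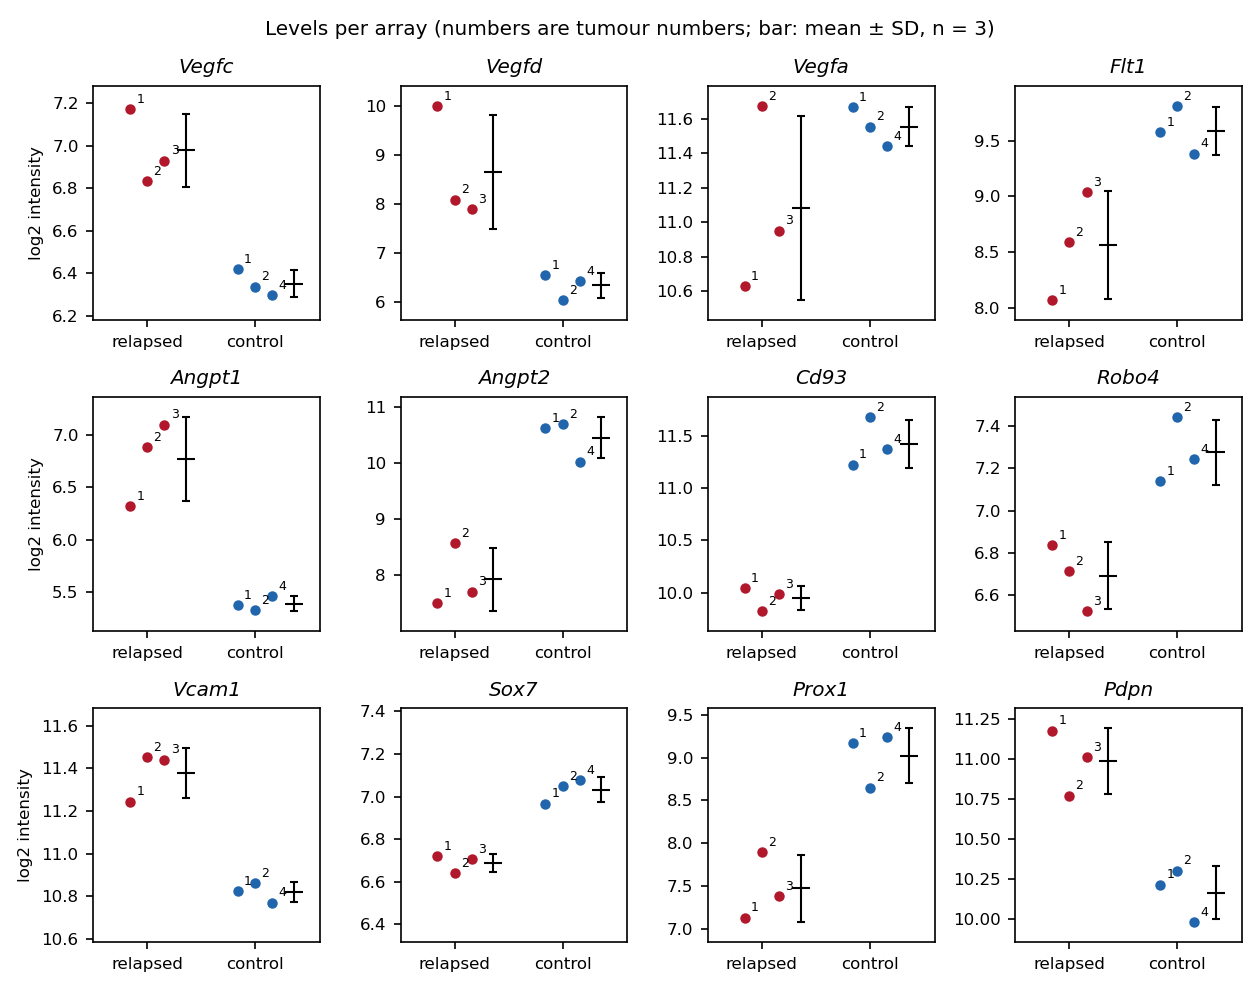
Log2 intensity of 12 genes on each array, relapsed gliomas on the left and control gliomas on the right of each panel, with the tumour number beside each point and the mean ± SD (n = 3) as a bar. The panels were chosen as the 9 genes that changed with Vegfd, Flt1 and Vegfa. Groups do not overlap for 11 of these 12 genes, a count set by that choice. They do not overlap for 19 of all 41 genes and for 30.8% of all genes tested. For Vegfa, relapsed 2 at 11.67 is level with the highest control.

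Neither the apelin peptide, which tip cells and hypoxic cells secrete, nor its receptor passed the test. Apln had 8.88, 9.72 and 8.67 in relapsed 1, 2 and 3, against 9.99, 10.13 and 10.002 in control 1, 2 and 4. The controls lay close together and every relapsed tumour was below them, with relapsed 2 the nearest. The difference was -0.95 ± 0.28 with an adjusted p of 0.0985 in limma, and without relapsed 2 it was -1.27 with an adjusted p of 0.0285. Whichever other array was left out, Apln did not pass (adjusted p of 0.213 to 0.229). The receptor gene Aplnr differed by -0.39 ± 0.22, with an adjusted p of 0.322.

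Of 15 endothelial surface, junction and secreted genes, 2 fell and none rose, or 13.3% called against 9.16% of all genes. A lower mean in relapsed tumours was found for 11 of the 15, against 10923 of all 19938 genes. Cd93, a C-type lectin-like receptor of endothelial cells and some myeloid cells (probe set 10488382), had 10.04, 9.82 and 9.98 in relapsed 1, 2 and 3, against 11.23, 11.68 and 11.37 in control 1, 2 and 4. Values within each group lay close together beside a distance of 1.18 between the groups. Cd93 fell by 1.48 ± 0.13 (SE), to a level 2.78-fold lower, with an adjusted p of 0.0103 in limma. It was the only one of the 9 changed genes that stayed called without each single array, with adjusted p of 0.0295 to 0.0473. Macrophage markers, whose cells can express Cd93, were higher in the same tumours, and their part in the level of Cd93 was not tested.

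Robo4, an endothelial guidance receptor that limits leakiness (probe set 10584288), had 6.84, 6.71 and 6.52 in relapsed 1, 2 and 3, against 7.14, 7.44 and 7.24 in control 1, 2 and 4. It fell by 0.58 ± 0.12 (adjusted p = 0.0423, limma). The groups did not overlap, but the call was lost whichever array was left out (adjusted p of 0.0621 to 0.120). Esam, a junction molecule, had 8.21, 8.03 and 7.71 in relapsed 1, 2 and 3, against 8.42, 8.98 and 8.50 in control 1, 2 and 4, a difference of -0.65 ± 0.20 with an adjusted p of 0.110. Plvap, which forms the diaphragms of leaky capillaries, had 8.72, 8.35 and 7.82 in relapsed 1, 2 and 3, against 8.94, 9.46 and 9.28 in control 1, 2 and 4. Its difference was -0.93 ± 0.26, with an adjusted p of 0.0904 that became 0.0452 when the dimmer 50% of genes were left out. For Robo4, Esam and Plvap alike relapsed 3, which carried skin markers, was the lowest and control 2, which carried muscle markers, the highest array.

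Vwf, the clotting factor stored by endothelial cells and platelets, had 7.44, 7.62 and 7.34 in relapsed 1, 2 and 3, against 7.64, 8.02 and 7.94 in control 1, 2 and 4. The difference was -0.40 ± 0.13, with an adjusted p of 0.128, and relapsed 2 almost reached control 1. Pecam1 had 8.55, 8.42 and 8.22 in relapsed 1, 2 and 3, against 8.55, 8.58 and 8.63 in control 1, 2 and 4, with an adjusted p of 0.290. Cd34 ran the other way, with 11.39, 11.03 and 10.63 in relapsed 1, 2 and 3, against 10.06, 10.54 and 10.16 in control 1, 2 and 4. This sialomucin of endothelial and stromal cells differed by 0.76 ± 0.23, with an adjusted p of 0.106, in tumours whose fibroblast scores, 0.47 to 1.07, lay above those of the controls, -0.94 to -0.41; their part was not tested. The remaining 8 genes had differences from -0.26 for Mmrn2, a matrix protein of vessel walls, to 0.36 for Mmrn1, of platelets and lymphatic vessels. These 8 include Nos3, the endothelial nitric oxide synthase, at -0.06 (95% interval -0.22 to 0.10), Egfl7, a secreted angiogenic factor, at -0.09 and S1pr1, the sphingosine-1-phosphate receptor, at -0.22. Emcn, a mucin of veins and capillaries, and Esm1, a tip cell proteoglycan, differed by -0.17 ± 0.29 and 0.19 ± 0.29, and both signs turned when control 2 (Emcn, 0.13) or relapsed 2 (Esm1, -0.11) was left out. Clec14a and Mmrn1 lay below the mark of low signal in both groups.

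Among 4 measured leukocyte adhesion molecules, 1 rose and none fell. Vcam1, which binds integrins of monocytes and lymphocytes (probe set 10501608), had 11.24, 11.45 and 11.44 in relapsed 1, 2 and 3, against 10.83, 10.86 and 10.77 in control 1, 2 and 4. The spread within groups was small beside the distance between them. Vcam1 rose by 0.56 ± 0.08 (SE), which is 1.47-fold (adjusted p = 0.0193, limma). The call held without relapsed 1 (adjusted p = 0.0275) and was lost whichever other array was left out (0.0512 to 0.0746). Icam1, the inducible ligand of leukocyte integrins, differed by 0.48 ± 0.20 with an adjusted p of 0.206, while Icam2, the constitutive endothelial form, differed by -0.10 ± 0.16. Sele, the selectin made by activated endothelium, differed by -0.30 ± 0.15 with an adjusted p of 0.266.

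Of 6 transcription factors, 1 fell and none rose. Sox7, of the SOXF group that specifies endothelial and arterial fate (probe set 10415885), had 6.72, 6.64 and 6.71 in relapsed 1, 2 and 3, against 6.97, 7.05 and 7.08 in control 1, 2 and 4. Sox7 fell by 0.34 ± 0.06, to a level 1.27-fold lower (adjusted p = 0.0290, limma). The call was lost whichever array was left out (adjusted p of 0.0558 to 0.0945). The related Sox17 and Sox18 differed by 0.01 ± 0.08 and -0.17 ± 0.30. Fli1, an ETS factor of endothelial and blood cells, had 9.45, 8.80 and 8.74 in relapsed 1, 2 and 3, against 7.93, 8.24 and 8.32 in control 1, 2 and 4. Its difference was 0.83 ± 0.22 with an adjusted p of 0.0817, and 0.0418 with the dimmer 50% of genes left out. Erg, the ETS factor more restricted to endothelium within the adult, differed by 0.12 ± 0.17. Tal1, a factor of blood and endothelial progenitors, differed by -0.02, with a 95% interval of -0.15 to 0.10.

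Prox1 and Pdpn, often used together to mark lymphatic endothelium, moved in opposite directions. Prox1, the homeobox factor that sets lymphatic fate (probe set 10361023), had 7.13, 7.90 and 7.38 in relapsed 1, 2 and 3, against 9.17, 8.65 and 9.24 in control 1, 2 and 4. It fell by 1.55 ± 0.25 (SE), to a level 2.93-fold lower, with an adjusted p of 0.0270 in limma. Of 9 glioma and oligodendrocyte progenitor markers, 8 were lower by mean in the same tumours, and 5 of the 9 fell. Olig2, Olig1, Bcan and Fabp7 fell the most, with differences of -3.54, -3.52, -2.65 and -2.21. Gfap was higher by mean, at 0.64, and Sox10 differed by -0.14, and neither was called. The scores of these markers were -0.79, -0.75 and -0.99 in relapsed 1, 2 and 3, against 0.48, 1.20 and 0.84 in control 1, 2 and 4. The part of these markers in the change of Prox1 was not tested. With 1 array left out at a time, the calls of Olig2, Olig1, Bcan and Fabp7 were lost in 3, 1, 5 and 5 of the 6 cases (adjusted p of 0.0586, 0.0518, 0.0815 and 0.0805 at most). Pdpn, the mucin podoplanin (probe set 10518147), had 11.18, 10.77 and 11.01 in relapsed 1, 2 and 3, against 10.21, 10.30 and 9.98 in control 1, 2 and 4. Pdpn rose by 0.82 ± 0.14, which is 1.77-fold (adjusted p = 0.0284, limma). The call of Prox1 held without relapsed 2 or control 2 (adjusted p of 0.0484 and 0.0490) and was lost when any of the other 4 arrays was left out (0.0647 to 0.0953), and that of Pdpn was lost whichever array was left out (0.0519 to 0.0951). Of 8 other lymphatic endothelial genes, 1 fell and none rose. The gene that fell was Reln, at -1.93 ± 0.40 with an adjusted p of 0.0462, which encodes reelin and is also made by neural cells, and its call was lost whichever array was left out (0.0578 to 0.135). Lyve1, a hyaluronan receptor of lymphatic vessels and macrophages, differed by 0.20 ± 0.62.

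**Figure D3:**
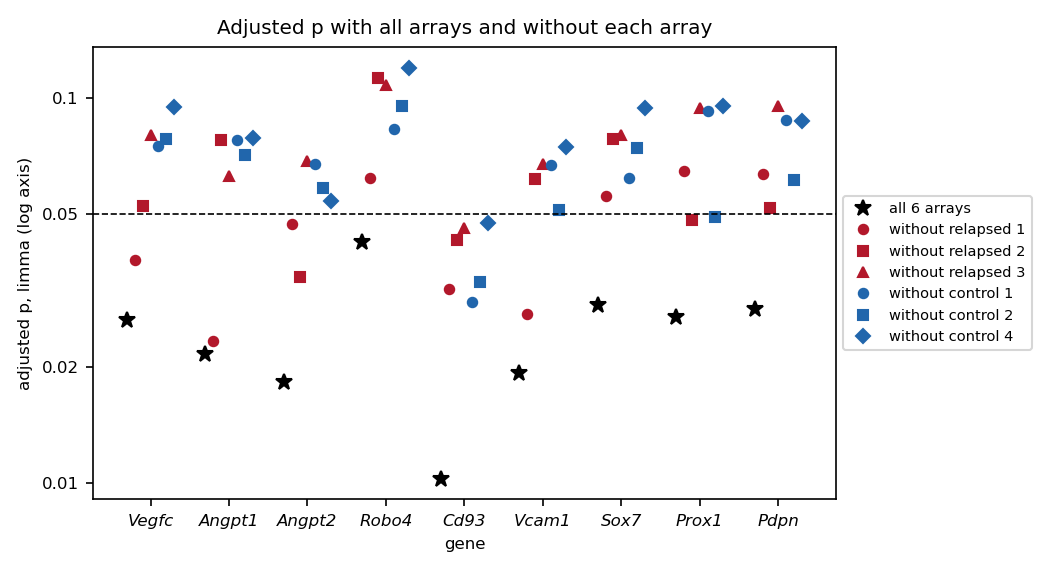
Adjusted p from limma for the 9 genes that changed, with all 6 arrays (stars) and without each array in turn, on a log axis; the dashed line is the threshold of 0.05. Cd93 stays below the line in all fits, while Robo4, Sox7 and Pdpn lie above it whichever array is left out.

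Within groups, relapsed 1 was the highest of the relapsed tumours for 25 of the 41 genes, or 61.0%, against 38.3% of all genes, and relapsed 3 the lowest for 21, or 51.2%, against 27.5% of all genes (a tie counts for the lower number). Control 2 was the highest control for 23 of the 41 genes, or 56.1%, against 35.4% of all genes. Relapsed 2 was the highest relapsed tumour for 13 of the 41 genes, or 31.7%, against 33.6% of all genes. The score of 14 hypoxia targets was -0.52, 0.51 and -0.36 in relapsed 1, 2 and 3, against 0.42, -0.12 and 0.07 in control 1, 2 and 4. None of the 14 hypoxia targets passed the test between groups, and the smallest p-values were those of Slc2a1, the glucose transporter GLUT1, at -0.62 ± 0.23 and Ldha, lactate dehydrogenase A, at -0.24 ± 0.11 (adjusted p of 0.166 and 0.246 in limma). Adm, a vasodilator peptide induced by hypoxia, had 8.82, 10.62 and 9.03 in relapsed 1, 2 and 3, against 10.94, 10.11 and 10.50 in control 1, 2 and 4. For Adm, as for Vegfa, relapsed 2 reached the control levels and the other relapsed tumours lay below all of them. The hypoxia targets Car9, Slc2a1, Ero1a and Pdk1, among others, showed this pattern too, while Ndrg1 and Ankrd37, among others, did not. Apart from Slc2a1, these genes and Adm were named after their values were seen. Whether hypoxia sets these levels was not tested. The SD between arrays had a median of 0.23 in relapsed and 0.19 in control tumours for the 41 genes, against 0.13 and 0.12 over all genes.

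**Figure D4:**
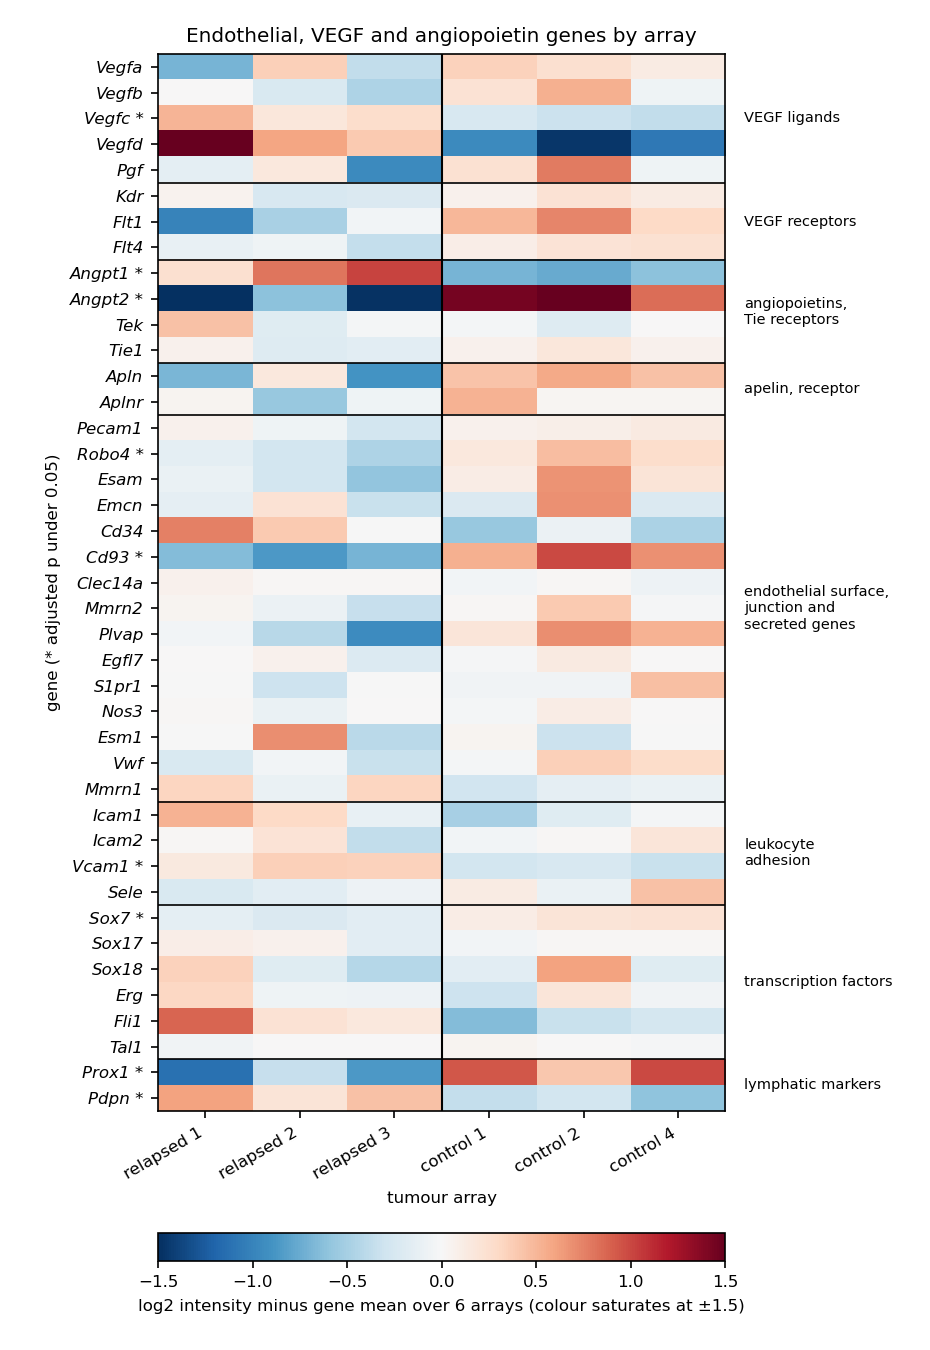
Log2 intensity of each of the 41 genes minus its mean over the 6 arrays, with relapsed gliomas in the left columns and control gliomas in the right columns; rows are grouped by role and stars mark the 9 genes that changed. Red is above and blue below the gene's mean, and the colour scale saturates at ±1.5; the control 2 column is red for most endothelial surface genes, and it is the highest control for 23 genes.

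Among 30 other endothelial genes, 2 rose and 2 fell, or 13.3% called against 9.16% of all genes. Their median difference was -0.05, against -0.02 over all genes. Jam2, a junctional adhesion molecule also found in neural cells, fell by 1.32 ± 0.14 (SE) with an adjusted p of 0.0125 in limma, and Podxl, a sialomucin of endothelial and progenitor cells, fell by 0.72 ± 0.15 with an adjusted p of 0.0491. Stab1, a scavenger receptor of sinusoidal endothelium and macrophages, rose by 1.22 ± 0.21, and Abcb1a, an efflux pump of the blood-brain barrier, rose by 0.77 ± 0.13 (adjusted p of 0.0289 and 0.0296). These calls were lost without relapsed 3 or control 4 for Jam2 (0.0530 at most), without any array but control 2 for Abcb1a (0.0637 to 0.0928), and whichever array was left out for Stab1 (0.0515 to 0.0877) and Podxl (0.0521 to 0.145). The score of the 30 genes was 0.08, 0.03 and -0.10 in relapsed 1, 2 and 3, against -0.04, 0.05 and -0.02 in control 1, 2 and 4, so the groups overlapped.

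Of 26 measured VEGF co-receptors and regulators of angiogenesis, 5 rose and 2 fell, or 26.9% called against 9.16% of all genes. Sema3c and Sema3d, secreted semaphorins that signal through neuropilins and plexins, rose by 1.98 ± 0.31 and 1.45 ± 0.11 (adjusted p of 0.0249 and 0.00703 in limma). Sema3d had 7.83, 7.55 and 7.49 in relapsed 1, 2 and 3, against 6.24, 6.16 and 6.12 in control 1, 2 and 4, and stayed called without each single array (0.0377 at most). Cxcl12, a chemokine of stromal cells, rose by 2.04 ± 0.36 and Hgf, a mesenchymal growth factor that acts on endothelium, by 2.61 ± 0.51 (adjusted p of 0.0316 and 0.0393). Without relapsed 1 the calls of Sema3c and Cxcl12 held (0.0293 and 0.0363), while they were lost whichever other array was left out (0.0562 to 0.0936 for Sema3c, 0.0571 to 0.101 for Cxcl12), and that of Hgf was lost whichever array was left out (0.0626 to 0.118). The fifth gene that rose was Angptl4, a secreted angiopoietin-like protein, at 1.21 ± 0.25, and the 2 that fell were Plcg1, a phospholipase downstream of VEGF receptors, and Ptprj, a receptor phosphatase, at -0.39 ± 0.08 and -0.51 ± 0.11 (adjusted p of 0.0467, 0.0407 and 0.0438 in limma). These 3 were named after their values were seen, to complete the count, and the call was lost whichever array was left out for Plcg1 (0.0650 to 0.119) and without any array but relapsed 1 for Angptl4 and Ptprj (0.144 and 0.132 at most).

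Markers of cells that could share these transcripts differed between groups. Among 14 macrophage markers 10 rose and none fell, with scores of 1.03, 0.53 and 0.53 in relapsed 1, 2 and 3, against -0.91, -0.58 and -0.60 in control 1, 2 and 4. The macrophage markers with the largest changes were Mrc1, a mannose receptor, Ptprc, the leukocyte antigen CD45, Tyrobp and Itgam, at 2.17, 1.88, 1.67 and 1.63. The call of Mrc1 stayed without each single array (0.0373 at most), that of Ptprc was lost whichever array was left out (0.0528 to 0.117), and those of Tyrobp and Itgam were lost in 4 and 3 of the 6 cases (0.0631 and 0.0582 at most). Among 11 fibroblast markers 8 rose and none fell, with scores of 1.07, 0.47 and 0.47 in relapsed 1, 2 and 3, against -0.41, -0.67 and -0.94 in control 1, 2 and 4. The largest changes there were those of the matrix genes Lum, Dpt and Dcn, at 2.76, 2.52 and 1.85, and of Fap, at 2.00. The call of Dcn stayed without each single array (0.0392 at most), those of Lum and Dpt held only without relapsed 1 (0.109 and 0.115 at most otherwise), and that of Fap was lost whichever array was left out (0.0677 to 0.132). Both scores moved in the same direction as Vegfc, Vegfd, Angpt1, Vcam1, Pdpn, Cd34 and Fli1, and their part in those differences was not tested. Of 13 pericyte and smooth muscle genes, 1 fell and none rose, with scores of 0.56, -0.12 and -0.19 in relapsed 1, 2 and 3, against -0.12, 0.13 and -0.27 in control 1, 2 and 4. That gene was Mcam, an adhesion molecule of endothelial and mural cells, at -0.99 ± 0.12 with an adjusted p of 0.0158, which was lost without relapsed 3 or control 1 (0.0590 at most). Rgs5, which marks pericytes, differed by 0.10 ± 0.16 and Pdgfrb, the receptor of pericytes and fibroblasts, by 1.20 ± 0.34 with an adjusted p of 0.0922. Among 4 megakaryocyte and platelet genes, Pf4, platelet factor 4, rose by 1.68 ± 0.32 with an adjusted p of 0.0389, which was lost whichever array was left out (0.0729 to 0.118). The other 3 were not called, with differences of -0.04 for Itga2b, -0.01 for Gp9 and 0.52 for Ppbp.

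**Figure D5:**
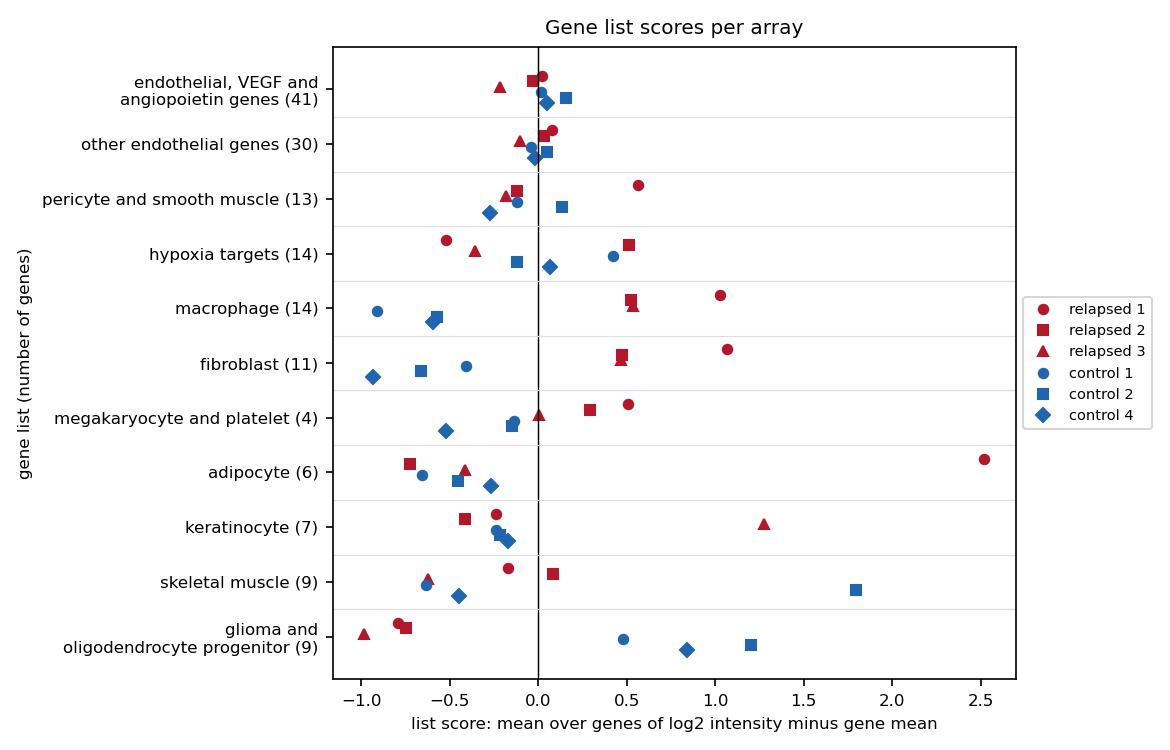
Score of the drawn gene lists on each array, the average deviation of a list's genes from their means over the 6 arrays, in log2 units. Relapsed gliomas are red, control gliomas blue, and symbols stand for the tumours. Among the drawn lists, macrophage, fibroblast, megakaryocyte and platelet, and glioma and oligodendrocyte progenitor scores separate the groups, and those of other endothelial genes overlap. The VEGF co-receptor and lymphatic scores, not drawn, also separate the groups. In the platelet list and in the lymphatic list only 1 gene was called, Pf4 at 1.68 and Reln at -1.93. Each had the largest difference of its list, and the separation of these scores without that gene was not tested. Relapsed 1 (adipocyte, 2.52, and pericyte and smooth muscle, 0.56), relapsed 3 (keratinocyte, 1.28) and control 2 (skeletal muscle, 1.79) lie above the other arrays.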

How the data were processed

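RNA of 6 tumours was measured on Affymetrix arrays, 1 array per tumour, from 5 ug of biotin-labelled total RNA per the labels' protocols. For every probe set and array the authors deposited a log2 intensity; the scale was read from the values, and array medians lay between 6.58 and 6.68. The affy package is named in the submitters' processing notes without a version, and which of its methods were used is not stated. If the arrays were normalized to each other, a change shared by most genes would be hidden.

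Of 35556 probe sets, 21789 had 1 gene symbol, 1621 several and 12146 none listed. The 19938 genes of the first kind were fitted with limma 3.58.1 in R 4.3.3 (lmFit, eBayes, relapsed against control, 4 residual degrees of freedom, a prior of 1.53), unfiltered, with two-sided p-values adjusted by Benjamini-Hochberg over all genes and called under 0.05. The fit was tested on simulated data. The number of arrays limits the precision, and the p-values measure only the spread between these tumours.

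The 41 genes, the 13 other lists (153 of 163 entries measured) and the rule for naming were chosen with earlier results of these data known. Values per array were given for genes that were called, did not overlap or differed by at least 1, and for 9 chosen genes of the pathway; from each other list, up to 4 called genes with the largest change were to be named, or the 2 with the smallest p where none was called. Other genes named from these lists, such as Cdh5 and Adm, were chosen after their values were seen. Alternatives were a filter on dim genes, 2 other normalizations, the mean of a gene's probe sets, all probe sets tested together, a trended prior, the tumour number as a block, and leaving out arrays. The tumour numbers were not taken as pairs, since the labels tie none of them to a shared animal or day.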

Additional observations from a re-analysis of the deposited data

How the results depend on the processing

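Of the 9 genes called, all 9 kept their sign in every alternative they were fitted in; over all 41 genes, 30 did, and the other 11 (Vegfa, Pgf, Tek, Emcn, Clec14a, Egfl7, Esm1, Icam2, Sox17, Sox18 and Erg), none of them called in any fit, changed sign in at least 1. Quantile normalization, median centring, the mean of a gene's probe sets, testing all probe sets and a trended, robust prior left 8 to 10 genes called. With the dimmer 50% of genes left out, 24 of the 41 genes remained in the fit and 10 were called, or 41.7%, against 20.3% of all genes in that fit. These 10 were Vegfd, Flt1, Angpt2, Apln, Cd93, Plvap, Vcam1, Fli1, Prox1 and Pdpn, so they are not the same set as the 9. Vegfc, Angpt1, Robo4 and Sox7 were among the dimmer genes and were not fitted there. Median centring moved the median of all genes to -0.09 from -0.02 and that of the 41 genes to -0.26 from -0.19. Leaving out 1 array gave 1 to 6 called genes, 0 to 4 higher and 1 to 4 lower, or 2.44% to 14.6% of the 41 genes against 1.32% to 4.89% of all genes, and medians of -0.26 to -0.10; 1 of the 9 (Cd93) stayed called in all 6 such fits and 3 (Robo4, Sox7 and Pdpn) in none. Of the 23 called genes named by rule from other lists, 3 (Sema3d, Mrc1 and Dcn) stayed called in all 6. Without control 2, relapsed 1 and relapsed 3 together, limma called 0 genes, 0 higher and 0 lower, with 15 of the 41 (36.6%) and 4980 of 19938 genes at an unadjusted p under 0.05, and a median of -0.0818; this fit has 1 relapsed tumour, assumed to vary like the controls, and 1 residual degree of freedom. With the tumour number as a replicate block, limma called 0 genes, 0 higher and 0 lower, with 9 of the 41 (22.0%) and 2199 of 19938 genes at an unadjusted p under 0.05, and it called 0 of all genes; that fit also has 1 residual degree of freedom, and only tumours 1 and 2 share a number, whose deviations from their group means correlated at -0.34 and -0.25. In the adipocyte, keratinocyte, skeletal muscle and erythroid lists no gene was called; the smallest p were those of Lep and Adipoq (0.62 and 1.32), Trp63 and Krt1 (0.21 and 0.75), Myh1 and Actn3 (-0.81 and -0.78), and Slc4a1 and Alas2 (0.08 and 0.32), as differences. Precision is limited by 3 arrays a group, and 12 of the 41 genes (29.3%, against 38.9% of all genes) had the same value on at least 2 arrays.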
